A study of Mus musculus with 19 samples.

Results

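The 10 genes described here encode the laminin chains, the nidogens and perlecan, which build the scaffold of the basement membrane. They are Lama1, Lama2, Lama4, Lama5, Lamb1, Lamb2, Lamc1, Nid1, Nid2 and Hspg2, picked by gene symbol with earlier results of these data known, and the rule itself uses no measured value. All 10 were found among the 23337 gene symbols of the RNA-seq tables, each with a RefSeq transcript, and all 10 passed the filter on low counts in every comparison.

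RNA-seq was done on 11 libraries from mouse tissues and embryonic stem (ES) cell cultures, to ask how far cystic embryoid bodies (EBs) resemble the endoderm of the visceral yolk sac (VYS). The tissues came from FVB mice, with no other allele or treatment named, and each tissue sample pooled a whole litter. They were the endoderm layer of the VYS (ysE) at embryonic day E9.25 (2 libraries, replicates A and B) and E12.5 (1 library), the mesoderm layer of the VYS at E9.25 (2 libraries), and fetal liver at E12.5 (2 libraries). Cystic EBs are hollow aggregates that form when ES cells are grown in suspension without the factor LIF. The ES cells were of a C57BL/6x129 background, and EBs were taken after 10 and 15 days, with 1 library per day from clone A9 (XY) and 1 from clone JN (XX). The layers of the yolk sac were parted after Dispase II, an enzyme that frees epithelia from their matrix. By that procedure the blood vessels and the membrane between the layers went with the mesoderm samples, not with the ysE.

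Laminins are cross-shaped trimers of 1 alpha, 1 beta and 1 gamma chain that polymerize on the cell surface. The alpha chain binds integrins and dystroglycan and gives each laminin its tissue character, while nidogens bind the gamma chain and perlecan, a heparan sulfate proteoglycan, ties the laminin sheet to type IV collagen. In the yolk sac a basement membrane lies between the endoderm and the mesoderm. In the early embryo the parietal endoderm, a relative of the yolk sac endoderm, lays down the thick Reichert's membrane, and laminin with the alpha 1, beta 1 and gamma 1 chains is among the earliest laminins made.

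Libraries held 40453779 to 169981821 transcript counts, and the 10 genes together took 0.0494% to 0.732% of them. The day 15 library of clone A9 stood apart, since the 10 genes took 0.732% of its counts and 0.192% to 0.210% in the other 3 EB libraries, so the main EB changes that it moves are also given without it. Library protocol ran along with the groups. Both E9.25 tissues and clone JN were dUTP libraries, liver and clone A9 were ScriptSeq libraries, and the E12.5 ysE library was not stranded, so reads from an antisense transcript could not be told apart there. Clone, the sex of the clone and protocol therefore cannot be told apart within the EBs. The 7 markers of yolk sac endoderm summed to 43200 RPKM (reads scaled to transcript length and library size) in E12.5 ysE and 10410 to 11590 RPKM in E9.25 ysE, against 1138 to 2031 RPKM in mesoderm and 158 to 1293 RPKM in EBs. In liver they summed to 1638 and 2959 RPKM. The marker Afp alone gave 35558 RPKM in E12.5 ysE. In bulk samples, fewer cells of a type and less RNA per cell cannot be told apart. Both clones and both days were taken as replicates of EBs, with each clone sampled once per day. The spread of the EBs thus mixes clones, days and protocols, and tests against tissues pool it with the spread within tissues. Libraries of the same clone deviated together (r = 0.638), so the 4 EB libraries are not 4 independent samples. The p-values for EBs against tissues may therefore be too small.

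Among the alpha chains, Lama1 (NM_008480, chr17:67697127-67822645 on mm10) encodes the alpha 1 chain of embryonic laminin. Its level was 35.7 and 151 RPKM in clone A9 EBs on day 10 and day 15, 38.7 and 36.2 RPKM in clone JN on the same days, 11.4 and 13.7 RPKM in E9.25 ysE, 26.8 RPKM in E12.5 ysE, 20.7 and 17.3 RPKM in mesoderm, and 2.22 and 2.08 RPKM in liver. In RPKM all 4 EB libraries lay above every tissue library (after scaling by TMM, E12.5 ysE fell within their range), liver lay below all others, and the day 15 library of clone A9 stood far above the rest. Lama5 (NM_001081171, chr2:180176373-180225904) encodes the alpha 5 chain, which is widespread in epithelia. It measured 3.84 and 3.24 RPKM in clone A9 on days 10 and 15, 15.0 and 11.7 RPKM in clone JN, 7.88 and 11.2 RPKM in E9.25 ysE, 15.2 RPKM in E12.5 ysE, 11.7 and 11.3 RPKM in mesoderm, and 0.6 and 0.788 RPKM in liver. The clones did not overlap, and the tissue libraries other than liver lay above clone A9 and within or near the range of clone JN.

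Lama4 (NM_010681, chr10:38965515-39110188) encodes the alpha 4 chain, known from endothelial and muscle basement membranes. It stood at 4.14 and 1.59 RPKM in clone A9, 1.19 and 3.36 RPKM in clone JN, 0.558 and 0.680 RPKM in E9.25 ysE, 0.0380 RPKM in E12.5 ysE, 17.5 and 16.3 RPKM in mesoderm, and 3.83 and 1.91 RPKM in liver. Mesoderm was clear of all other groups at the top and ysE at the bottom, while EBs and liver overlapped. Lama2 (NM_008481, chr10:26981285-27617191) encodes the alpha 2 chain of muscle and nerve basement membranes, and it stayed below 1 RPKM in every library. Its level was 0.383 and 0.144 RPKM in clone A9, 0.182 and 0.345 RPKM in clone JN, 0.186 and 0.0930 RPKM in mesoderm, and 0.890 and 0.352 RPKM in liver. In ysE it was read from 5 and 30 counts at E9.25 and from 1 count at E12.5.

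**Figure D1:**
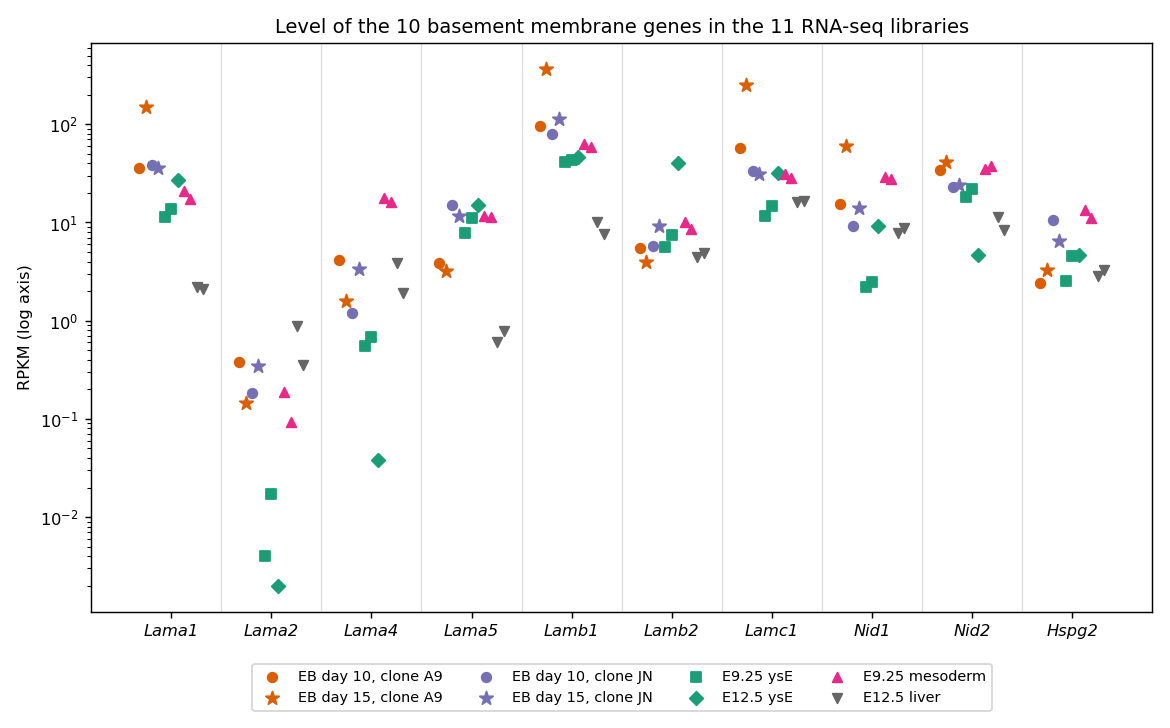
Level of each of the 10 genes in RPKM on a log axis, with 1 point per RNA-seq library and colors for clone or tissue. The day 15 library of clone A9 tops Lama1 (151 RPKM), Lamb1 (364 RPKM), Lamc1 (248 RPKM) and Nid1 (60.6 RPKM), and Lama2 lies below 1 RPKM throughout.

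Set against each other per length, the 4 alpha chain genes differed in their shares between groups, and library protocol ran along with the groups. Other alpha chain genes were not read and are not in the sum. Lama1 was 70.1% to 96.8% of the summed alpha chain RPKM in the EB libraries, 53.5% to 63.8% in ysE, 38.4% to 41.3% in mesoderm and 29.5% to 40.5% in liver. Its share in EBs was above that in every tissue library, and its shares in mesoderm and liver overlapped. Lama5 held 36.1% to 43.8% in ysE, more than in any other library, and 23.3% to 25.2% in mesoderm. In EBs the Lama5 share split by clone and protocol, with 8.71% and 2.08% in A9 and 27.2% and 22.7% in JN on days 10 and 15. Over all groups it was at most 15.3% in ScriptSeq libraries and at least 22.7% in dUTP libraries, so protocol cannot be told apart from tissue or clone here.

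Lama4 made up 35.0% and 36.2% of the alpha chain RPKM in mesoderm and 50.8% and 37.3% in liver, against 1.02% to 9.38% in EBs and at most 2.81% in ysE. Mesoderm and liver were thus both clear of EBs and ysE. Lama2 reached 11.8% and 6.86% in liver and was under 1% of the alpha chain RPKM everywhere else.

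**Figure D2:**
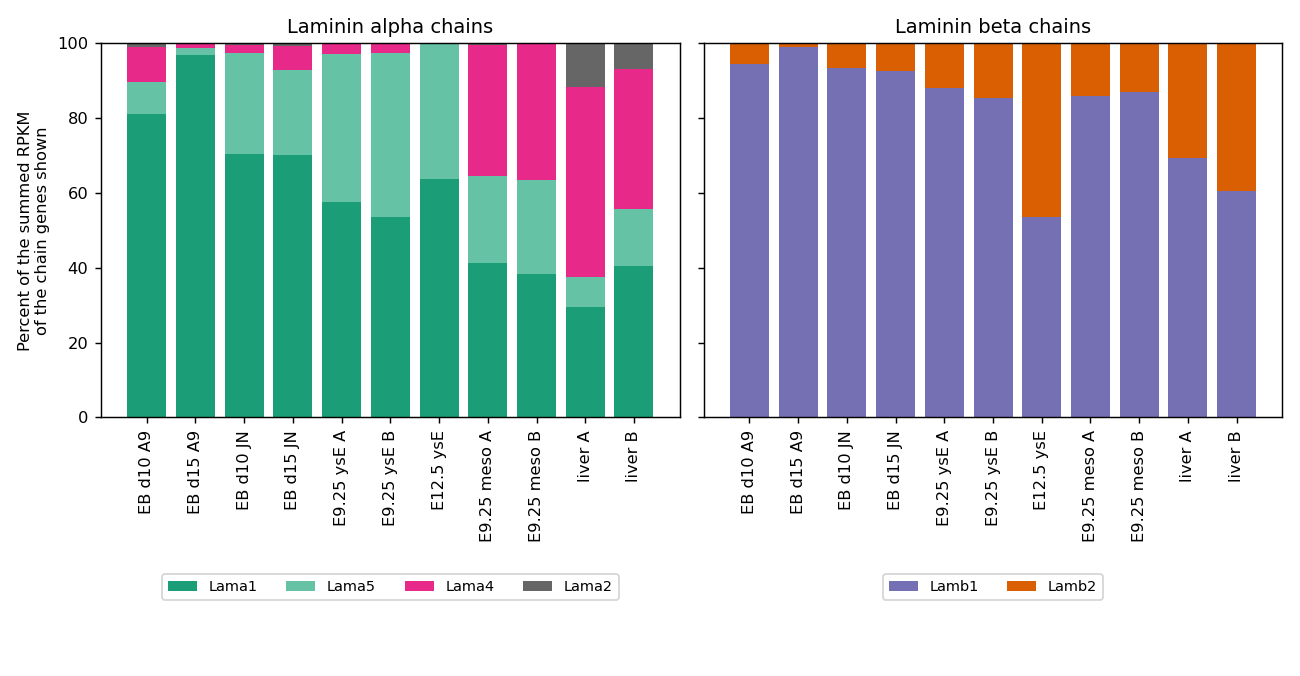
Share of each chain gene in the summed RPKM of the 4 alpha chain genes (left) and of Lamb1 and Lamb2 (right). Values are in percent, with 1 stacked bar per library. Lama1 takes 70.1% to 96.8% in EBs, Lama4 takes 35.0% to 50.8% in mesoderm and liver, and Lamb2 takes 46.5% in E12.5 ysE.

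Lamb1 (NM_008482, chr12:31265146-31329644) encodes the beta 1 chain shared by most embryonic laminins. It read 96.2 and 364 RPKM in clone A9, 79.8 and 114 RPKM in clone JN, 40.9 and 42.9 RPKM in E9.25 ysE, 46.7 RPKM in E12.5 ysE, 63.0 and 58.1 RPKM in mesoderm, and 10.0 and 7.58 RPKM in liver. It had the highest RPKM of the 10 genes in all 9 libraries other than liver, with EBs above the tissues, mesoderm next, then ysE, and liver lowest. Lamb2 (NM_008483, chr9:108479847-108490530) encodes the beta 2 chain, known from the kidney glomerulus and the neuromuscular junction. It was 5.54 and 3.95 RPKM in clone A9, 5.76 and 9.23 RPKM in clone JN, 5.6 and 7.41 RPKM in E9.25 ysE, 40.7 RPKM in E12.5 ysE, 10.2 and 8.58 RPKM in mesoderm, and 4.43 and 4.94 RPKM in liver. The E12.5 ysE library alone was high, and the other groups overlapped or lay close together.

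The beta chain makeup followed from this. Of the summed RPKM of Lamb1 and Lamb2, Lamb2 was 46.5% in E12.5 ysE, 30.6% and 39.5% in liver, and 12% to 14.7% in both E9.25 tissues. This sum leaves out Lamb3, another beta chain, at 24.5 RPKM in E12.5 ysE and at most 0.972 RPKM in any other library. With Lamb3 in the sum, the Lamb2 share in E12.5 ysE would be lower. In EBs the Lamb2 share was 1.07% to 7.49%, below every tissue library.

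Lamc1 (NM_010683, chr1:153218922-153332786) encodes gamma 1, the gamma chain of nearly all laminins. Its level was 56.9 and 248 RPKM in clone A9, 33.5 and 31.4 RPKM in clone JN, 11.7 and 14.6 RPKM in E9.25 ysE, 32.2 RPKM in E12.5 ysE, 31.1 and 28.7 RPKM in mesoderm, and 16.1 and 16.7 RPKM in liver. Clone JN, E12.5 ysE and mesoderm lay within a narrow band, E9.25 ysE and liver were below it, and clone A9 was above it. Summed beta chain RPKM was 1.48 to 3.97 times the gamma 1 level in every library of the EBs and the yolk sac, but only 0.899 and 0.748 times that level in the 2 liver libraries. Beta over alpha was 1.46 to 2.44 across all 11 libraries, liver included. Both ratios take Lamb1 and Lamb2 as the beta chains and leave out Lamb3. The alpha sum covers only the alpha chain genes named above.

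Nid1 (NM_010917, chr13:13437602-13512275) encodes nidogen 1, which links laminin gamma 1 to collagen IV. It measured 15.5 and 60.6 RPKM in clone A9, 9.19 and 14.1 RPKM in clone JN, 2.22 and 2.51 RPKM in E9.25 ysE, 9.20 RPKM in E12.5 ysE, 29.2 and 27.4 RPKM in mesoderm, and 7.74 and 8.75 RPKM in liver. E9.25 ysE was the lowest group, and the spread of the EBs enclosed mesoderm. Nid2 (NM_008695, chr14:19751257-19811787), which encodes the related nidogen 2, was 34.2 and 41.7 RPKM in clone A9, 22.7 and 24.2 RPKM in clone JN, 18.2 and 22.0 RPKM in E9.25 ysE, 4.62 RPKM in E12.5 ysE, 35.1 and 37.4 RPKM in mesoderm, and 11.4 and 8.38 RPKM in liver. Here E12.5 ysE was the lowest library, so the nidogens were ordered differently in the E9.25 and E12.5 ysE libraries, which also differed in protocol.

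Nid1 was accordingly 10.9% and 10.2% of the summed nidogen RPKM in E9.25 ysE and 66.6% in E12.5 ysE. It was 40.4% to 51.1% in mesoderm and liver. Hspg2 (NM_008305, chr4:137468751-137570630) encodes perlecan. It read 2.40 and 3.32 RPKM in clone A9, 10.5 and 6.53 RPKM in clone JN, 2.56 and 4.51 RPKM in E9.25 ysE, 4.72 RPKM in E12.5 ysE, 13.3 and 11 RPKM in mesoderm, and 2.85 and 3.30 RPKM in liver. Mesoderm was above all other libraries, and the 2 clones did not overlap.

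Promoter sequence was matched for 6 of the 10 genes in the RefSeq table (build GRCm38.p6), taken as the 250 bases before the start. For Lama2 the start in that table lies inside the transcript measured here, so all but 1 of its 250 bases are within the annotated gene. CpG dinucleotides numbered 20 for Hspg2, 19 for Lama5, 16 for Nid1, 14 for Lamb1, 3 for Lamb2 and 0 for Lama2, against a median of 6 over 27025 promoters. Only Lamb2 and Hspg2 are shown. For Lama5, Lamb1 and Nid1 another annotated gene lies over these bases, and Lama2 has only 1 base outside its gene. Only the bases outside the annotated gene are printed, 5′ to 3′ on the plus strand in lower case, with every CpG in capitals. The first is chr9:108479612-108479846 with 3 CpGs in 235 bases and the second chr4:137468553-137468750 with 17 CpGs in 198 bases.
Lamb2: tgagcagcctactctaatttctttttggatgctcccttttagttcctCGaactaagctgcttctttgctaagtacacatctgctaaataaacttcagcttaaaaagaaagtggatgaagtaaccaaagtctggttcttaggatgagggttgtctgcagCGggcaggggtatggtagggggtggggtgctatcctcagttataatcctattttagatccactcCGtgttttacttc
Hspg2: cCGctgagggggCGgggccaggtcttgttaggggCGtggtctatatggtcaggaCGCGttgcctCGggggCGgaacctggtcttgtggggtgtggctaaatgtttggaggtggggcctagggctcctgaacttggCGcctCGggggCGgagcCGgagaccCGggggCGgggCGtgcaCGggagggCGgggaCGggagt

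The letters GGGCGG, the core bound by Sp1, were counted on both strands over the whole 250 bases. They occurred 5 times in Hspg2, 4 times in Lama5, 2 times in Lamb1 and 1 time in Nid1, and in no copy in Lama2 and Lamb2, while 32.9% of all promoters held at least 1 copy. CCAAT occurred once each in Lamb1 and Nid1, where 34.5% of all promoters held it, and TATAAA in none of the 6, where 13.0% held it.

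H3K4me3, a mark of promoters in use, was mapped in whole E12.5 VYS from FVB mice, pooled from several animals, against input DNA. With 1 sample there was no replicate, and the endoderm and mesoderm cannot be told apart in it. All 6 genes with a start in the promoter table had a peak within 1 kb of it, as did 45.4% of all promoters. For Lama1, Lama4, Lamc1 and Nid2 both gene ends were searched, and each had a peak at 1 end. The MACS score, minus 10 times the log10 of the peak p-value, was 3100 for the strongest peaks of Lama1, Lama5, Lamb1 and Lamc1, a value that 5262 of the 22343 peaks shared and 267 exceeded, so it does not rank peaks near the top. Nid2 (2870), Hspg2 (2844) and Lamb2 (2483) came next and Lama4 had 1650. Nid1 (333) and Lama2 (304) had the lowest scores, below the median peak. Lama4, at 0.0380 RPKM in E12.5 ysE and 16.3 to 17.5 RPKM in E9.25 mesoderm, thus had a stronger peak than Nid1.

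The first comparison set the layers of the yolk sac against each other at E9.25, where both groups were dUTP libraries. The test was edgeR's quasi-likelihood F-test on counts, fitted on all 11 libraries in 5 groups, with Benjamini-Hochberg adjustment over 24858 transcripts, and a gene was called at an adjusted p below 0.05. The comparisons below share libraries, so they are not independent. Of the 10 genes, 3 were lower in ysE and 0 were higher, where 16.9% of all transcripts were called lower and 13.7% higher. The median log2 change was -0.70 for the 10 genes and -0.05 for all transcripts.

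Lama4 was lower in ysE by the most, with a log2 fold change of -4.45 (SE 0.62, adjusted p = 0.000796) and no overlap between the layers. Lama2 differed by -3.31 (SE 0.79, adjusted p = 0.0112) and Nid1 by -3.26 (SE 0.83, adjusted p = 0.0149). For Lama2 this rests on 5 and 30 counts in ysE against 207 and 121 in mesoderm, so its size is uncertain. The Nid1 call was lost without either ysE library (adjusted p = 0.0962 and 0.0863) or without mesoderm replicate A (0.0509), and the Lama2 call without ysE replicate A (0.0784) or mesoderm replicate A (0.0655). Perlecan was also lower in both ysE libraries but did not pass (log2 change -1.46, SE 0.60, adjusted p = 0.0959). The trimer of Lama1, Lamb1 and Lamc1 did not pass either, with log2 changes of -0.28, -0.21 and -0.86, nor did Lama5 at 0.05. The spread in this fit came from all 11 libraries, EBs included. Fitted on the layers alone, Hspg2 (-1.51, adjusted p = 0.00126), Lamc1 (-0.90, 0.00102) and Nid2 (-0.57, 0.00791) were also lower in ysE. That fit called 13160 transcripts, against 7613. Without the day 15 library of clone A9, Nid1 had an adjusted p of 0.000109.

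Cell type markers moved with these differences. All 6 endothelial markers were lower in ysE, summing to 6.15 to 8.47 RPKM against 164 to 182 RPKM in mesoderm, as were 4 of 4 erythroid, 2 of 3 fibroblast, 2 of 5 smooth muscle and mesothelium, 1 of 3 macrophage and 1 of 3 heart muscle markers. In the other direction 6 of 7 yolk sac endoderm and 1 of 3 hepatoblast markers were higher, and parietal endoderm markers split with 1 of 7 each way. Their part in the differences of Lama4, Lama2 and Nid1 was not tested.

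Among related genes, 9 of 25 other basement membrane components were lower in ysE and 3 were higher. Col4a5, a type IV collagen chain, had a log2 change of -4.79 (adjusted p = 0.000851) and Smoc2, a calcium-binding matrix protein, one of -4.54 (adjusted p = 0.000306). Smoc1 (1.89) and Papln (1.83) were higher. Of other laminin chains, Lamb3 was higher (1.41) at under 1 RPKM, and Lamc3 was lower on 0 and 7 counts in ysE against 128 and 30 in mesoderm. Of 7 laminin receptors, the integrin subunit gene Itgb4 was higher (1.67) and Itga6 lower (-0.75).

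**Figure D3:**
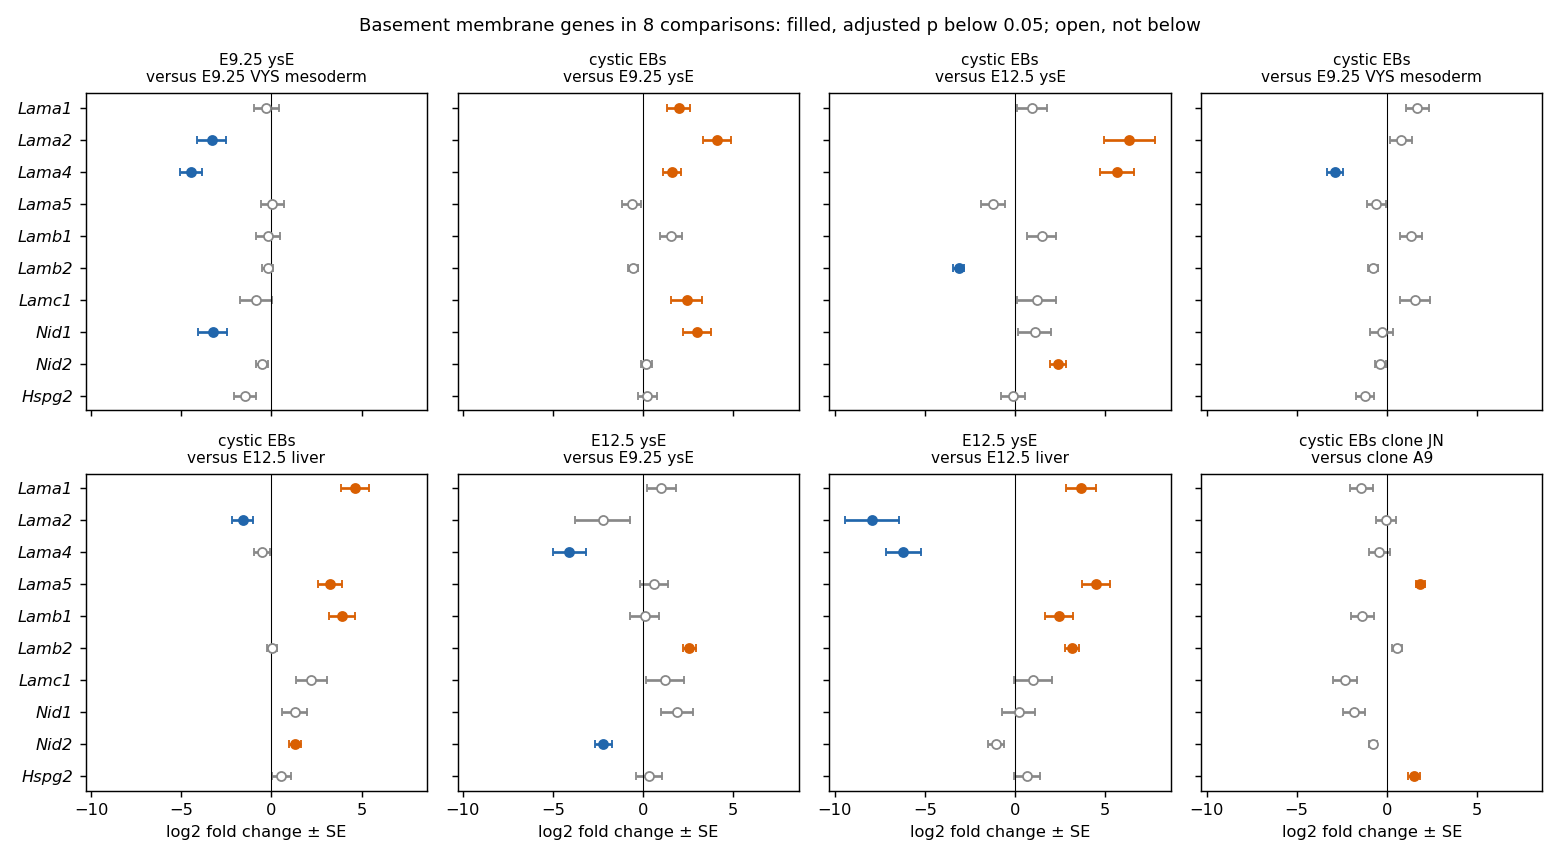
Log2 fold change with its standard error for the 10 genes in 8 comparisons, from edgeR's quasi-likelihood fit. Filled points passed an adjusted p of 0.05, in orange where the group named first was higher and in blue where it was lower. Lama4 is filled in 6 of the 7 comparisons between tissues or of EBs with a tissue, the exception being EBs against liver, and ranges from -6.19 in E12.5 ysE against liver to 5.68 in EBs against E12.5 ysE.

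The next comparison asked how close cystic EBs came to E9.25 ysE. Of the 10 genes, 5 were higher in EBs and 0 lower, where 27.1% of all transcripts were called higher and 23.2% lower. The median log2 change was 1.56 for the 10 genes and 0.17 for all transcripts. Lama2 differed by 4.10 (SE 0.78, adjusted p = 0.00216), Nid1 by 2.98 (SE 0.77, adjusted p = 0.0104), Lamc1 by 2.41 (SE 0.87, adjusted p = 0.0435), Lama1 by 1.96 (SE 0.65, adjusted p = 0.0315) and Lama4 by 1.59 (SE 0.50, adjusted p = 0.0253). Lamb1 missed the threshold at 1.54 (SE 0.62, adjusted p = 0.0614) although its EB and ysE libraries did not overlap. Lama5 (-0.64), Lamb2 (-0.55), Nid2 (0.17) and Hspg2 (0.24) did not pass, and their groups overlapped in CPM, though for Nid2 not in RPKM.

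Of these 5 calls only that for Lama2 held when 1 ysE library was left out, with adjusted p of 0.147 and 0.118 for Lama1, 0.183 and 0.150 for Lamc1, 0.0739 and 0.0680 for Nid1 and 0.135 and 0.0983 for Lama4 without replicate A and B. Lamc1 was also lost without any 1 of the mesoderm or liver libraries (adjusted p = 0.0597 to 0.0628), and Lama4 without the day 15 library of clone JN (0.0570). The Lama2 call rests on 5 and 30 counts in the ysE libraries and on at most 0.383 RPKM in EBs, so its size is uncertain. The day 15 library of clone A9 set the size of several of the other changes. Without it 6 of the 10 genes were called higher, Lamb1 among them, where 12519 transcripts were called in either direction against 12500 with it, and the log2 changes were 1.22 for Lamc1, 1.14 for Lama1, 2.03 for Nid1 and 0.79 for Lamb1 (adjusted p = 0.00761, 0.00150, 0.000234 and 0.0180). Within dUTP libraries alone, which leave clone JN, 7 of the 10 genes were higher in EBs, where 13425 transcripts were called in either direction.

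All 7 yolk sac endoderm markers were lower in EBs than in E9.25 ysE, 3 of 3 heart muscle, 3 of 3 neural, 3 of 7 parietal endoderm, 2 of 5 smooth muscle and mesothelium, 1 of 3 fibroblast and 1 of 6 endothelial markers were higher, and 4 of 4 erythroid and 2 of 3 hepatoblast markers were lower. What these moving cell types contributed to the 5 calls was not tested. Of the other basement membrane components, 10 of 25 were higher in EBs and 5 lower, led by Ntn4 (3.70), a netrin of basement membranes, and the collagen gene Col4a6 (3.13) on the one side and Papln (-3.97) and Fras1 (-1.26) on the other. Receptor genes split, with Itga6 (1.09) and Itgb1 (0.89) higher and Itga3 (-1.39) and Itgb4 (-0.99) lower.

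Against E12.5 ysE, a single library assumed to vary as the others do, 3 of the 10 genes were higher in EBs and 1 lower, where 21.1% and 18.8% of all transcripts were called so. The medians were 1.15 for the 10 genes and 0.42 for all transcripts. Lama4 differed by 5.68 (SE 0.95, adjusted p = 0.00148), Nid2 by 2.38 (SE 0.45, adjusted p = 0.00294) and Lamb2 by -3.11 (SE 0.31, adjusted p = 9.69e-05). Lama2 passed too (adjusted p = 0.00692), and since the ysE library held 1 count its size is better given as a ratio of counts, 86.3 with an exact 95% interval of 15.4 to 3410 for counting error alone. Lama1 (0.96), Lamb1 (1.47), Lamc1 (1.20) and Nid1 (1.10) did not pass, and without the day 15 library of clone A9 they stood at 0.09, 0.67, -0.04 and 0.11.

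The E12.5 ysE library held little signal of vessels, with 6 endothelial markers summing to 0.372 RPKM and Emcn at 0, against 8.17 to 47.4 RPKM in EBs, where 5 of the 6 were called higher. Markers of heart muscle (3 of 3), neural cells (3 of 3), smooth muscle and mesothelium (3 of 5), parietal endoderm (5 of 7), erythroid cells (2 of 4) and fibroblasts (1 of 3) were higher in EBs as well, and 7 of 7 yolk sac endoderm, 3 of 3 hepatoblast and 1 of 3 macrophage markers were lower. Their part in the Lama4 and Lama2 differences was not tested. Lamb3, which encodes the beta chain of epithelial anchoring laminin, was lower in EBs by -5.34 on the log2 scale (adjusted p = 2.4e-05), at 0.507 to 0.972 RPKM against 24.5 RPKM. Of the 25 other components 8 were higher, led by Hmcn1 and Ntn4, which had 4 counts and 1 count in the ysE library and 0.588 to 2.09 and 0.295 to 1.28 RPKM in EBs, and 4 lower, led by Papln (-7.30) and Col15a1 (-4.25). Of the 7 receptors 4 were lower in EBs, among them Bcam (-2.38), a receptor for the alpha 5 chain, and Itgb4 (-1.93).

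Between the stages of the endoderm, E12.5 against E9.25, 1 of the 10 genes was higher at E12.5 and 2 were lower, where 3.9% and 4.57% of all transcripts were called. The medians were 0.46 for the 10 genes and -0.21 for all transcripts. Stage, library protocol and the time in Dispase II, which was longer at E12.5 by the paper's methods, cannot be told apart in this comparison. Lamb2 was higher by 2.56 (SE 0.37, adjusted p = 0.00585), Lama4 lower by -4.09 (SE 0.91, adjusted p = 0.0263) and Nid2 lower by -2.21 (SE 0.47, adjusted p = 0.0218). None of these passed without E9.25 replicate A (adjusted p = 0.0612, 0.0853 and 0.0746), and only Lamb2 passed without replicate B. Nid1 lay higher at E12.5 by 1.88 (adjusted p = 0.222) and Lama1 by 1.01, and neither passed. Both were called when the day 15 library of clone A9 was left out (adjusted p = 0.00536 and 0.0276). Fitted on the 3 ysE libraries alone, log2 changes were 2.02 for Nid1, 1.15 for Lama1, 1.35 for Lamc1 and 0.73 for Lama5. The spread in that fit came from the E9.25 libraries only. For Lama2 the ratio of E9.25 to E12.5 counts was 5.35, with a counting interval of 0.899 to 217.

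Scaling by DESeq2's size factors moved the median of all transcripts by 0.16 in this comparison and by under 0.1 in all others, and no call of the 10 genes changed with it. Lamb3, another laminin chain, had a log2 change of 6.10 (adjusted p = 0.00105), from 0.312 and 0.359 RPKM at E9.25. Col15a1 (4.55) and Papln (3.33) were higher at E12.5, Hmcn1 (4 counts at E12.5) and Frem1 (-3.27) lower, and 3 of 25 components passed in each direction. None of the 7 receptors passed. Of the 6 endothelial markers 3 were lower at E12.5, as were 3 of 4 erythroid, 2 of 7 parietal endoderm, 1 of 5 smooth muscle and mesothelium and 1 of 3 fibroblast markers, and 1 of 3 hepatoblast markers was higher. What these contributed to the Lama4, Nid2 and Lamb2 differences was not tested.

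EBs and E9.25 mesoderm differed in 1 of the 10 genes, with 1 lower in EBs and 0 higher, where 15% of all transcripts were called lower and 13.9% higher. The medians were -0.32 for the 10 genes and 0.03 for all transcripts. Lama4 was lower in EBs by -2.87 (SE 0.45, adjusted p = 0.00196). Lama1 (1.69, adjusted p = 0.0761), Lamb2 (-0.76, adjusted p = 0.0587) and Hspg2 (-1.22, adjusted p = 0.0897) came near the threshold. The day 15 library of clone A9 weighed on this, since without it Lama1 was called higher (0.84, adjusted p = 0.0124) and Nid1 lower (-1.25, adjusted p = 0.00406). Within dUTP libraries 1 gene was higher, Lama1 (0.85), and 3 were lower, Lama4, Nid1 (-1.43) and Nid2 (-0.76). That fit called 8671 transcripts in either direction, against 7187 in the main fit. Without the day 10 library of JN, Hspg2 was added as lower (-1.72, adjusted p = 0.0116), and without its day 15 library Lamb2 (-0.99, adjusted p = 0.00985).

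Endothelial markers were lower in EBs than in mesoderm for 5 of 6 genes, as were 4 of 4 erythroid, 2 of 3 fibroblast and 3 of 7 yolk sac endoderm markers, while 2 of 3 heart muscle and 2 of 3 neural markers were higher. Parietal endoderm markers split with 2 of 7 higher and 1 lower, and macrophage markers with 1 of 3 each way. Their part in the Lama4 difference was not tested. Lamb3 was higher in EBs (2.17). Of the other components 2 were higher, Col4a4 (1.55) and Smoc1 (0.86), and 7 lower, led by Smoc2 (-4.25) and Col15a1 (-2.57). The integrin subunit gene Itga7 was higher (3.0), and Bcam (-1.82) and Itga3 (-1.77) were lower.

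Liver served as an embryonic endoderm tissue. Of the 10 genes, 4 were higher and 1 lower in EBs than in liver, where 24.6% and 20.9% of all transcripts were called. The medians were 1.30 and 0.20. Lama1 differed by 4.63 (SE 0.77, adjusted p = 0.00127), Lamb1 by 3.91 (SE 0.71, adjusted p = 0.00204), Lama5 by 3.27 (SE 0.66, adjusted p = 0.00356) and Nid2 by 1.31 (SE 0.31, adjusted p = 0.00802). Without the day 15 library of clone A9, Lama1 differed by 3.74 and Lamb1 by 3.09, and both passed. Lama2 was lower by -1.59 (SE 0.58, adjusted p = 0.0484), with libraries that overlapped in RPKM but not in CPM, and it lost its call without liver replicate A (log2 change -0.75, adjusted p = 0.451) and in 6 of the 10 fits that each left out 1 library. Nid2 lost its call without liver replicate B (1.09, adjusted p = 0.0844). Lamc1 missed the threshold (2.21, SE 0.86, adjusted p = 0.0616) but passed without the day 15 library of clone A9 (0.95, adjusted p = 0.0227) and, within ScriptSeq libraries alone, at 2.95 (adjusted p = 0.0215). Within ScriptSeq libraries Lama2 lost its call (-1.56, adjusted p = 0.0955). Erythroid markers, at 234 to 474 RPKM in liver and at most 3.12 RPKM in EBs, were all lower in EBs, as were 2 of 3 hepatoblast, 1 of 6 endothelial and 1 of 3 macrophage markers. Parietal endoderm markers were higher for 4 of 7, as were 3 of 3 neural, 2 of 5 smooth muscle and mesothelium and 1 of 3 hepatoblast markers. The parietal endoderm list summed to 196 to 1531 RPKM in EBs against 57.5 and 66.03 RPKM in liver. Most of each sum was Sparc, also listed as a basement membrane component, at 152 to 1360 RPKM in EBs and 48.1 and 51.4 RPKM in liver. The yolk sac endoderm list split with 2 of 7 higher and 3 lower, and 1 of 5 smooth muscle and mesothelium markers was lower. The part of these markers was not tested.

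In E12.5 ysE against liver, 4 of the 10 genes were higher and 2 lower in ysE, where 22.6% and 23.7% of all transcripts were called and the medians were 0.83 and -0.26. Lama5 (4.49, SE 0.79, adjusted p = 0.00158), Lama1 (3.67, SE 0.83, adjusted p = 0.00564), Lamb2 (3.15, SE 0.38, adjusted p = 0.000228) and Lamb1 (2.44, SE 0.78, adjusted p = 0.0283) were higher. Lamb1 lost its call without either liver library (adjusted p = 0.0799 and 0.12). Lama4 was lower in ysE (-6.19, SE 0.98, adjusted p = 0.000948), and so was Lama2 (adjusted p = 0.00235), whose count ratio of liver to ysE was 264 with a counting interval of 47.2 to 10400. Lamc1 (1.01), Nid1 (0.19), Nid2 (-1.07) and Hspg2 (0.65) did not pass. Tissue and protocol cannot be told apart here, and 7 of 7 yolk sac endoderm and 1 of 3 hepatoblast markers were higher in ysE. There 5 of 6 endothelial, 4 of 4 erythroid, 3 of 5 smooth muscle and mesothelium, 3 of 7 parietal endoderm and 1 of 3 each of the macrophage, neural, heart muscle and fibroblast markers were lower. Their part in the calls was not tested.

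Related genes also differed between liver and both EBs and E12.5 ysE. In EBs Col4a1 (4.15) and Col4a2 (3.58), the main type IV collagen chains, led the 6 of 25 components that were higher, and Papln (-3.28) and Hmcn1 (-2.73) the 4 that were lower. In E12.5 ysE 7 were higher, led by Tinagl1 (4.67) and Fbln1 (4.22), and 7 lower, led by Hmcn1, with 4 counts in ysE, and Frem1 (-5.68). Of the 7 receptors 5 were higher in each, with Bcam first in both (3.15 and 5.53), then Itga7 (2.98) in EBs and Itga3 (3.69) in ysE. Lamb3 was higher in EBs (3.0) and in E12.5 ysE (8.33).

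Within the EBs, day 15 was set against day 10 over 22452 transcripts. None of the 10 genes was called by edgeR in either direction, where 0% of all transcripts were called higher and 0% lower. At an unadjusted p below 0.05 there were 304 transcripts and 0 of the 10 genes, where 1123 transcripts would be expected with no change. DESeq2 called 17 transcripts and 0 of the 10 genes. This fit had no term for clone, although libraries of the same clone deviated together (r = 0.638), so clone differences are part of its spread. The log2 changes of Lama1 (1.37, SE 0.79), Lamb1 (1.48, SE 0.71), Lamc1 (1.69, SE 1.06) and Nid1 (1.65, SE 0.82) were the largest and had adjusted p = 1.

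The changes over these days differed in size between the clones. In clone A9 the day 15 library had 4.48 times the library-scaled counts (CPM) of the day 10 library for Lama1, 4.02 times for Lamb1, 4.64 times for Lamc1 and 4.15 times for Nid1. In clone JN the same ratios were 0.869, 1.33, 0.872 and 1.42. Each ratio rests on 1 library per day, so the difference between the clones has no replicate. The same day 15 library of clone A9 was high in Col4a1 (693 RPKM against 122 to 213 RPKM in the other EB libraries), Col4a2 (375 against 63.8 to 98.0 RPKM) and Sparc (1360 against 152 to 321 RPKM). Its 7 parietal endoderm markers, Sparc among them, summed to 1531 RPKM against 196 to 377 RPKM in the other EB libraries, and none of the 7 was called between days or clones. Of the 7 yolk sac endoderm markers 3 were highest there, with Afp at 688 RPKM against 25.8 to 212 RPKM in the others, while Apob, Cubn and Hnf4a were below clone A9 on day 10 and Amn was lowest there (1.82 RPKM against 3.19 to 12.4 RPKM). The part of these markers in the 4 genes was not tested.

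Clone JN against clone A9 gave 2 of the 10 genes higher in JN and 0 lower, where 7.9% of all transcripts were called higher and 4.64% lower. The medians were -0.59 for the 10 genes and 0.01 for all transcripts. Lama5 was higher in JN by 1.86 (SE 0.23, adjusted p = 0.00755) and Hspg2 by 1.51 (SE 0.33, adjusted p = 0.0382). Hspg2 lost its call without the day 10 library of either clone (adjusted p = 0.159 for JN and 0.0632 for A9) and without the day 15 library of JN (0.0502). With day as a term in the fit, Hspg2 also lost its call (adjusted p = 0.0507) and Nid2 gained one as lower in JN (-0.76, adjusted p = 0.0460). Lamc1 (-2.33, SE 0.67, adjusted p = 0.0720), Nid1 (-1.82, SE 0.63, adjusted p = 0.106) and Nid2 (-0.77, SE 0.21, adjusted p = 0.0638) did not pass, although in all 3 both JN libraries lay below both A9 libraries. Without the day 10 library of A9, log2 changes were -2.12 for Lama1, -2.03 for Lamb1, -3.05 for Lamc1 and -2.51 for Nid1. Without its day 15 library they were 0.04, -0.03, -0.84 and -0.46. Each of these fits left clone A9 with 1 library. Of the related genes only the receptor Bcam passed (1.93, adjusted p = 0.0132), and 3 of 7 yolk sac endoderm, 1 of 6 endothelial and 1 of 3 fibroblast markers were lower in JN and 1 of 5 smooth muscle and mesothelium markers higher.

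Because the clones were sequenced with different protocols, the position of reads along each transcript was compared between them. Counts per exon part were ordered 5′ to 3′ and split into 3 equal sets of parts, for the 4 EB libraries and replicate A of E9.25 ysE. The strand was read from the promoter table for 6 genes and from the end that held the H3K4me3 peak for Lama1, Lama4, Lamc1 and Nid2. In dUTP libraries the 3′ set held 38.6% to 41.5% of the Lamb2 counts, and in the ScriptSeq libraries of clone A9 it held 75% and 78.6%. The shift was similar in direction for Lamb1 (38.8% to 40.2% against 59.1% and 59.4%), Nid2 (30.3% to 32.4% against 54.6% and 57.7%) and Hspg2 (33.4% to 33.7% against 52.2% and 54.6%). Lama5 (29.3% to 31.5% against 46.1% and 46.8%), Lamc1, Nid1 and Lama1 also had the ScriptSeq libraries above all dUTP libraries, and Lama4 did not (21.5% to 29.3% against 24.0% and 25.4%). Nor did Lama2 (0% to 26.0% against 15.8% and 23.5%), which had 5 counts in E9.25 ysE replicate A.

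**Figure D4:**
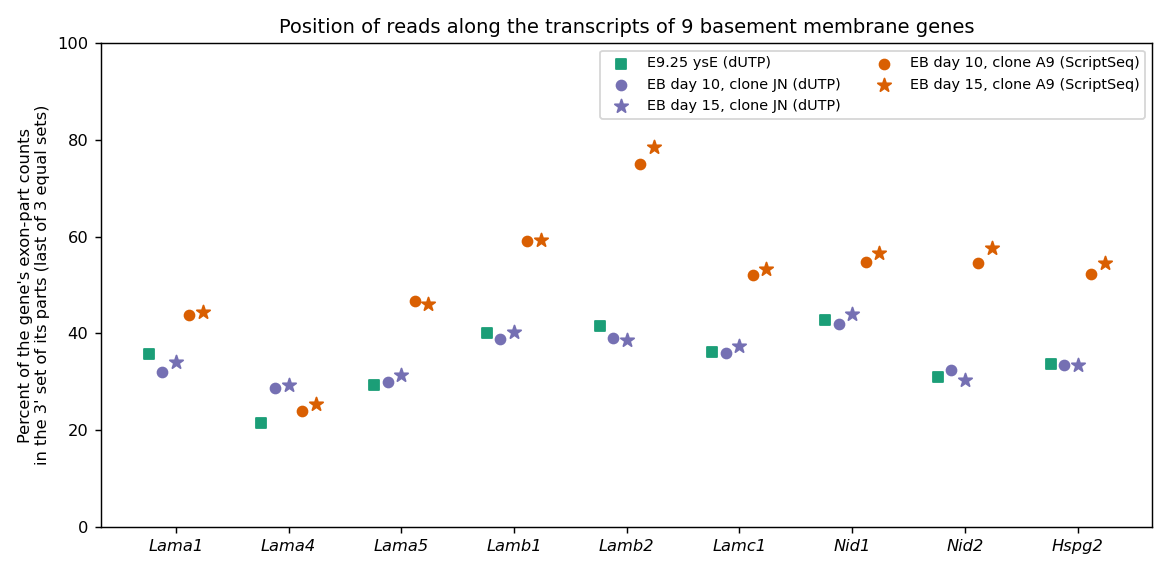
Percent of the exon-part counts of each gene that fell in the 3′ set of its parts, with 1 point per library and the protocol given in the legend. Lama2 is left out. The ScriptSeq libraries lie above all dUTP libraries for 8 of the 9 genes shown, from 43.8% against at most 35.7% for Lama1 to 75% against at most 41.5% for Lamb2, while for Lama4 the ranges overlap.

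The clone differences varied with the end of the transcript that was read. For Lama5 the ratio of JN to A9 mean CPM was 5.42 in the 5′ set and 2.35 in the 3′ set, and for Hspg2 it was 4.06 and 1.80, so both genes were higher in JN at either end. For Lamb2 the ratio was 4.30 in the 5′ set and 0.771 in the 3′ set, which puts JN higher at one end and lower at the other. Lamc1 was lower in JN than the A9 mean at both ends (0.474 and 0.136), as were Nid1 (0.322 and 0.216), Lama1 (0.441 and 0.282), Lamb1 (0.843 and 0.279) and Nid2 (0.777 and 0.322). The A9 mean includes its day 15 library, which stood apart. Over the whole transcript, day 10 A9 lay between the JN libraries for Lama1 (341 CPM against 380 and 330) and Lamb1 (558 against 475 and 631). It lay above both for Lamc1 (435 against 263 and 230), Nid1 (94.1 against 57.2 and 81.4) and Nid2 (167.5 against 114.5 and 113.1). The ratio of day 15 to day 10 in clone A9 compares libraries of 1 protocol and was close at the 5′ and 3′ ends, with 4.23 and 4.54 times for Lama1, 3.73 and 4.01 times for Lamb1, 4.38 and 4.75 times for Lamc1, and 4.01 and 4.29 times for Nid1.

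DNA methylation was read from 6 whole genome bisulfite libraries, none of them from the FVB tissues or ES clones above. They were ysE and liver at E12.5 from CAST and FVB mice crossed both ways (CxF and FxC), and day 15 EBs from 1 ES clone of each cross, CF-C2 and FC-A2. For each gene the methylated share of all reads at CpGs was taken, with exact Clopper-Pearson 95% intervals that cover counting error only. A read over several CpGs was counted at each of them, so linked calls can make these intervals too narrow. Nid1 had no calls and is not analysed here. With 2 libraries per group an exact two-sided permutation test cannot reach 0.05, so values are set beside the spread.

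The body of Lama2 was 53.7% (50.7% to 56.7%) and 40.3% (37.6% to 42.9%) methylated in ysE from CxF and FxC, 72.3% and 78.7% in liver and 88.8% and 84.7% in EBs. Lama4 had 55.7% (51.7% to 59.6%) and 53.4% (48.9% to 57.9%) in ysE, against 71.9% and 80.1% for liver and 86.6% and 81.1% for EBs. These were also the 2 genes with the least RNA in ysE, and they had the lowest ysE gene body methylation of the 9 genes, below the medians of all protein-coding genes (71.9% and 66.7%). Lama1, by contrast, was 81.0% and 81.1% methylated in ysE, against 84.7% and 80.4% for liver and 92.7% and 84.8% for EBs, and Lamb1 was 83.5% and 76.5%, 80.3% and 79.5%, and 90.3% and 88.5%.

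In 5 of the 9 genes both ysE libraries lay below both liver libraries, where 56.4% of all genes did. Both EB libraries lay above both liver libraries in 6 of 9, where 34.4% of all genes did, and above both ysE libraries in 7 of 9, where 61.8% did. Liver exceeded ysE by 28.5 percentage points for Lama2 and 21.5 for Lama4, against a median of 9.93 over all genes and between -0.08 and 17.1 for the other 7 genes.

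**Figure D5:**
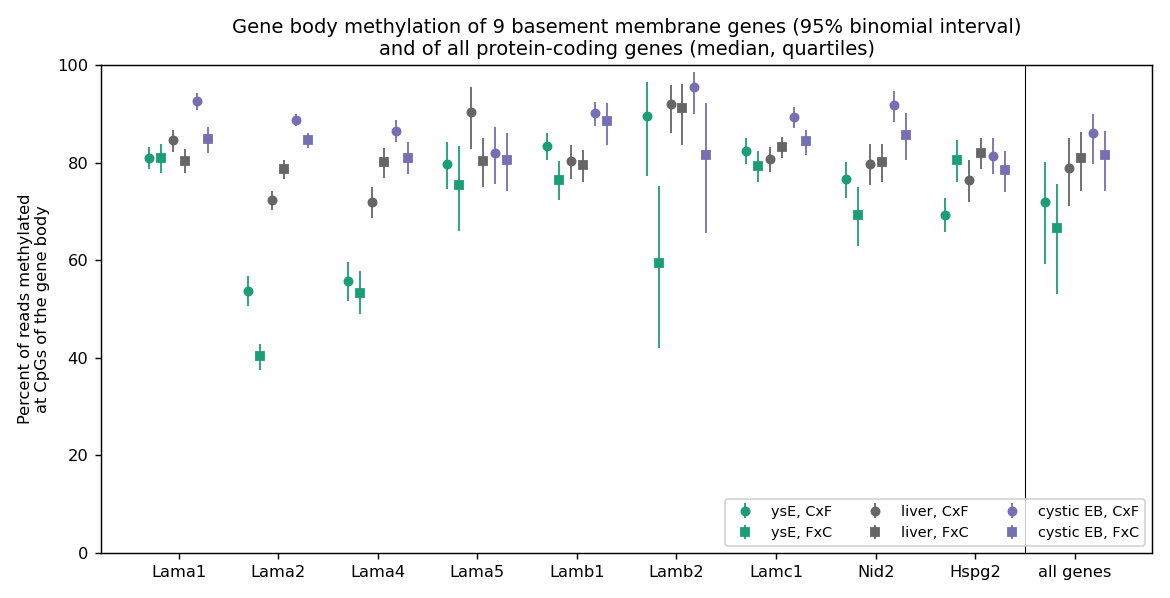
Percent of reads methylated at CpGs of the gene body for 9 genes, with 1 point per bisulfite library and bars for the 95% binomial interval, beside the median and quartiles of all protein-coding genes. Lama2 (53.7% and 40.3%) and Lama4 (55.7% and 53.4%) lie lowest in ysE, and Lama1 lies near 81.0% there.

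Reads within 1 kb of the starts were few, so those values have wide intervals. At the end of Lama1 with the H3K4me3 peak, 0 of 28 and 0 of 9 reads were methylated in ysE (upper bounds 12.3% and 33.6%), 42.9% of 14 and 40.0% of 20 reads in liver, and 40.0% of 5 reads in the CxF EBs. The ysE CxF interval and the liver intervals (17.7% to 71.1% and 19.1% to 63.9%) did not overlap, while the ysE FxC interval overlapped them. With linked calls on a read, that gap is not a test of a difference. At the end of Lama4 with the peak, 88.2% of 17 reads (63.6% to 98.5%) were methylated in CxF ysE, against 42.1% of 19 (20.3% to 66.5%) and 2 of 10 (2.52% to 55.6%) in liver, with too few reads in FxC ysE. Within 1 kb to either side of the Lamb2 start, of which the printed bases are a small stretch, liver had 66.1% of 59 reads (52.6% to 77.9%) and 74.2% of 31 reads (55.4% to 88.1%), the FxC EBs 3 of 15 reads, and ysE 80.0% of 10 reads in CxF and 0 of 8 in FxC, so the ysE libraries disagreed. The Lama5 promoter had 15.4% of 13 reads (1.92% to 45.4%) and 14.3% of 14 reads (1.78% to 42.8%) methylated in ysE. The median promoter had 42.9% and 40.0%, inside those intervals. For Lama5, FxC liver had 2 of 6 reads methylated, CxF EBs 3 of 5 and FxC EBs 0 of 6.

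Across the 11 RNA-seq libraries some of the 10 genes ran together. Pearson's r of log2(RPKM + 1) was 0.983 for Lama1 and Lamb1, 0.818 for Lama1 and Lamc1, 0.796 for Lamb1 and Lamc1 and 0.815 for Lamc1 and Nid1. These libraries share tissues, clones and protocols, so r is a description. Without the day 15 library of clone A9 the same values were 0.973, 0.717, 0.656 and 0.723, so the tie of Lama1 to Lamb1 was the least dependent on it. Lama4 ran with Nid1 at 0.578 over 11 libraries and 0.815 over the 10.

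Of 19102 transcripts at 1 RPKM or more in some library, those most like Lama1 were Lamb1 (0.983), Col4a2 (0.973) and Myadm (0.973). Those most like Lamb1 were Col4a2 (0.992), Lama1 (0.983) and Zfp449 (0.968). For Lamc1 they were Ccdc46 (0.962), Cited2 (0.95) and Oas1a (0.948), of which only Cited2 was kept with a pseudocount of 0.1. For Lama4 they were Sorcs2 (0.986), Camk4 (0.985) and Adamts17 (0.979).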

How the data were processed

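RNA-seq, exon-part, bisulfite and H3K4me3 ChIP-seq files were used, and a table of repeat counts was not used here. Per the submitters' processing notes and the paper's methods, reads were aligned with GSNAP to mm10. The authors deposited read counts per RefSeq transcript with no normalization and RPKM values per transcript, made with RSeQC and custom scripts. Exon-part counts were deposited from the DEXSeq counting script, and the file of E9.25 ysE replicate B held only zeros. The authors deposited the percent of methylation and the read number per CpG, called with BisSNP, and H3K4me3 peaks with the MACS (1.4.2) score, called on 1 sample against input. No column of another series was used (0 columns).

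The genes and lists were chosen with earlier results of these data known. Each gene was read from its transcript with the highest mean count. Counts were fitted with edgeR 4.0.16 (limma 3.58.1, R 4.3.3; filterByExpr, TMM, quasi-likelihood test, Benjamini-Hochberg adjustment, FDR 5%), on 11 libraries in 5 groups, or on the 4 EB libraries for day and clone. DESeq2 1.42.0, the other scaling, filters, samples and blocks were alternatives. Of the other lists, up to 2 called genes per direction with the largest change were named (a listed gene is not reported here), and up to 3 most similar transcripts for Lama1, Lamb1, Lamc1 and Lama4. For each EB day the letters A and B mark the same ES clone, and same-letter libraries deviated together (r = 0.638). The day test reported above had no block. An alternative fit with clone as the block called 0 of the 10 genes. Promoters were taken 1 kb to either side of a start, or of both gene ends where the promoter table gave none, and features under 5 reads were left out. Levels, shares and intervals came from Python 3.11.15 (scipy 1.17.1, pandas 2.3.3, numpy 2.4.6, matplotlib 3.10.9). The fits were tested on simulated counts.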

Additional observations from a re-analysis of the deposited data

Results flagged for a closer look

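The day 15 library of clone A9 lay apart from the other 3 EB libraries for 4 of the 10 genes, with Lama1 at 150.8 RPKM, Lamb1 at 363.5 RPKM, Lamc1 at 248.5 RPKM and Nid1 at 60.64 RPKM. Its gap to the next library was 0.974, 0.879, 0.883 and 0.877 of the whole range of the 4 libraries, each past Dixon's 95% critical value for 4 samples. Chance alone would mark about 1 in 20 groups, and 10 were looked at, in the same 4 libraries. These 4 genes also ran together over the 11 libraries (r of 0.55 to 0.983), so they are not separate cases. How many of all transcripts lay past that value in this library was not computed, so the 4 of 10 cannot be set against a background. Between days 10 and 15 the log2 change in library-scaled counts had opposite signs in the clones for 7 of the 10 genes. This was not tested, since each clone has 1 library per day. The share over all transcripts was not computed, so the count has no background. Of the 7 genes, Nid2 depended on the scaling, as its ratio in RPKM was above 1 in both clones (1.22 in A9 and 1.06 in JN). In clone A9 the log2 change was 2.16 for Lama1, 2.21 for Lamc1, 0.37 for Nid2 and 0.56 for Hspg2. It was -1.32 for Lama2, -1.29 for Lama4 and -0.40 for Lamb2. In clone JN the same genes had -0.20, -0.20, -0.02 and -0.79, and 0.82, 1.39 and 0.58.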

How the results depend on the processing

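No call of the 10 genes reversed under any alternative. Over all genes, comparisons and alternatives, 1182 values kept their side of the threshold and their sign, 57 gained a call, 42 lost one, and 39 uncalled values changed sign.

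Fitting only the groups compared gave 6 of the 10 genes instead of 3 in ysE against mesoderm, 3 instead of 5 in EBs against E9.25 ysE, and 7 instead of 3 between the ysE stages. The numbers of all called transcripts moved from 7613 to 13160 in the first of these and from 2106 to 10559 in the last, and in EBs against E12.5 ysE from 9932 to 6344. At an FDR of 1% in the fit of all 11 libraries, EBs against E12.5 ysE gave 5794 transcripts. In EBs against E9.25 ysE, fitting only the groups compared called 10755 transcripts instead of 12500. The clone comparison on all 11 libraries gave 5 genes instead of 2 and 5749 transcripts instead of 2815. DESeq2's own test gave 5 genes and 5516 transcripts between clones. In EBs against mesoderm it gave 3 genes instead of 1 and 9153 transcripts instead of 7187. It gave 4018 instead of 2106 transcripts between the ysE stages. Within dUTP libraries EBs against mesoderm gave 4 genes and 8671 transcripts.

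The ysE and mesoderm libraries share only replicate letters (r = -0.0859 between same-letter deviations), and the replicate block there gave 6 genes and 12279 transcripts. In EBs against mesoderm the replicate block gave 2 genes and 6942 transcripts. In EBs against E9.25 ysE it gave 4 genes and 12532 transcripts. There Lama1 (adjusted p = 0.0671) and Lamc1 (0.108) lost their calls in edgeR and Lama5 gained one as lower in EBs (-0.95, adjusted p = 0.0489).

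Leaving out 1 library at a time gave 1 to 4 genes in ysE against mesoderm, 1 to 6 in EBs against E9.25 ysE, 4 to 5 against E12.5 ysE, 1 to 3 against mesoderm and 4 to 5 against liver. It gave 0 to 5 between the ysE stages, 5 to 8 in E12.5 ysE against liver, 0 between days and 1 to 5 between clones. All called transcripts fell to 4021 in ysE against mesoderm, 7603 in EBs against E9.25 ysE, 2512 in EBs against mesoderm, 6668 in EBs against liver, from 11297, 349 between the ysE stages and 528 between clones. The lone library left in a group was assumed to vary like the others.

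Methylation values existed for 113 features and libraries at 5 reads, and 92 and 68 at 10 and 20 reads. Of the 12 most similar transcripts 8 stayed with a pseudocount of 0.1 RPKM and 12 with no filter. Starts with under 30 reads and the single E12.5 ysE library limit what can be seen there.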
